A study of Mus musculus with 16 samples.

Results

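The protein factors that start and extend translation are encoded by a compact group of abundantly expressed genes. In initiation, the eIF2 complex carries the initiator tRNA to the small ribosomal subunit, eIF2B recharges eIF2 with GTP, the eIF2 kinases shut eIF2 off under stress, and eIF1, eIF1A, eIF5 and eIF5B govern start site choice and joining of the large subunit. The eIF3 complex scaffolds these steps, and eIF4G, eIF4A, eIF4B and eIF4H bring the capped mRNA and unwind its leader. In elongation, eEF1A delivers aminoacyl-tRNA, the eEF1B subunits (Eef1b2, Eef1d, Eef1g) recharge it, eEF2 translocates the ribosome, and eIF5A helps the ribosome through difficult sequences. RAM, the product of Ramac, activates the mRNA cap methyltransferase RNMT, and the cap is the mark by which the eIF4 proteins find an mRNA. The data were used here to ask whether transcripts of the factors themselves changed, in level or in polysome association, when RAM was depleted.

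The factor genes were selected by symbol. Of 46983 genes in the count table, 75 had a symbol beginning with Eif or Eef and a digit. Of these, 7 pseudogenes marked -ps and 8 genes of the Eif4e series were left out, as were 3 genes under a mean of 10 counts over the input libraries, which left 57. The 3 genes under the minimum were Eif2c5 at 2.375 counts, Eef1akmt3 at 3 and Eef1a2 at 4.25, and the members closest above it were Eef1akmt2 at 182.5, Eef1akmt1 at 203.4 and Eif3j2 at 342.9. All 57 were among the 12805 genes that passed the filter on low counts.

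RNA was sequenced from 46C mouse ESCs, a 129Ola line whose Sox1 locus carries GFP, 48 hr after they received either RAM siRNA (siRAM) or a non-targeting control siRNA. All 4 groups were transfected. The paper's supplement names the same individual RAM siRNA for all 4 occasions. Effects of RAM loss and effects of this siRNA on other targets therefore cannot be told apart. For each siRNA, 4 replicates each gave an input library, from the cytoplasmic lysate, and a polysome library, from sucrose gradient fractions 17 to 22 combined, 16 libraries with between 16647523 and 20147833 counts each. Levels are counts scaled to a common library size (CPM) after TMM scaling over all 16 libraries, given as mean ± SD of 4 libraries. A level is a share of each library's RNA, so in these bulk samples fewer cells of one kind and less RNA per cell cannot be told apart.

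Ramac itself stood at 10.8 ± 0.608 CPM in control input and 3.02 ± 0.233 CPM in siRAM input (log2 fold change -1.84 ± 0.11 SE; adjusted p = 7.24e-06, edgeR quasi-likelihood test), 28.0% of control. ESC transcription factors were abundant in both input groups, and some were lower with siRAM. Nanog was at 260.2 ± 18.6 CPM in control input and 212.8 ± 8.02 CPM in siRAM input, without overlap (log2 fold change -0.29 ± 0.07 SE; edgeR adjusted p = 0.0205). Esrrb was at 430.3 ± 15.6 CPM and 362.7 ± 7.11 CPM, also without overlap (-0.25 ± 0.07 SE; edgeR adjusted p = 0.0290). These were the 2 of 6 ESC markers called lower in input, and 5 of 6 were when the replicate number entered the fit (the replicate block, described below). Pou5f1 was at 485.2 ± 46.4 CPM and 427.0 ± 47.6 CPM, and Sox2, not called in either fit, lay between 244.7 and 277.8 CPM in control input and between 234.7 and 251.9 CPM in siRAM input. Summed over the 6 ESC markers, control input libraries held 1838 to 2099 CPM, siRAM input 1656 to 1846, control polysomes 2297 to 2919 and siRAM polysomes 1833 to 2608 CPM. The 4 neural markers summed to between 71.6 and 83.6 CPM in control input and between 77.7 and 91.9 CPM in siRAM input, and moved in different directions. Nes went from 27.7 ± 4.73 to 37.3 ± 5.77 CPM (edgeR adjusted p = 0.0531, 3.70e-06 with the block) and Pax6 from 12.4 ± 1.53 to 8.78 ± 1.98 CPM (edgeR adjusted p = 0.0506, 0.000287 with the block), while Sox1 was at 6.24 ± 1.45 and 6.57 ± 0.969 CPM and Tubb3, the most abundant neural marker in control input, at 32.8 ± 8.06 and 33.6 ± 8.06 CPM. The 4 endoderm markers summed to between 4.11 and 5.29 CPM in control input and between 5.95 and 7.54 CPM in siRAM input, and Gata6, the most abundant of them, rose from 2.83 ± 0.394 to 4.34 ± 0.458 CPM (edgeR adjusted p = 0.0196). The 4 fibroblast or feeder markers summed to between 8.05 and 9.63 CPM in control input and between 8.94 and 11.2 CPM in siRAM input. Thy1 was the most abundant of these, at 7.36 ± 0.736 and 8.41 ± 0.791 CPM, Col1a1 was at 1.10 ± 0.168 and 1.27 ± 0.199 CPM, and Col3a1 had at most 1 count in any library. The 2 blood markers summed to at most 0.422 CPM, with Hbb-bs at 0 counts in every library. The part of marker differences in the results below was not tested.

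Libraries of one group did not stand equally close to each other. In polysomes, 66.7% of the variance of log2 CPM within the control group and 61.5% within the siRAM group lay between replicates 1 and 2 on one side and replicates 3 and 4 on the other, against 29.5% and 29.9% in input. For the factor genes, the median SD of log2 CPM was 0.113 in control input, 0.159 in siRAM input, 0.197 in control polysomes and 0.309 in siRAM polysomes. Over all genes tested it was 0.127, 0.149, 0.262 and 0.384. Within input, replicate 4 was the library with the highest level for 40 of the 57 factor genes in the control group and for 43 of 57 in the siRAM group (70.2% and 75.4%, against 32.1% and 37.0% of all genes tested). Same-numbered libraries deviated together across genes, and a fit with the replicate number as a factor (the replicate block) is given beside a result where it changed a call.

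Levels spanned a wide range in control input. The factor genes together took between 1.85% and 2.18% of the counts of a control input library, and between 2.23% and 2.63% in control polysomes. Per kilobase of annotated transcript, the elongation factor genes Eef1a1, Eef1g and Eef2 headed the order, while Eef1d lay far lower, at 68.0 CPM per kb. Eef1a1 reached 3244 CPM per kb, followed by Eef1g at 507.3, Eef2 at 459.6, the helicase gene Eif4a1 at 438.5, Eef1b2 at 362.0 and Eif5a at 346.8 CPM per kb. Eef1a1 (5820 ± 469.8 CPM) lay far above Eef2 (1420 ± 80.3 CPM) in all 4 libraries. Within their complexes, Eif2s2 of eIF2 (524.9 ± 66.2 CPM), Eif2b5 of eIF2B (137.7 ± 8.79 CPM), Eif3a of eIF3 (489.1 ± 32.7 CPM) and Eif2ak3, the endoplasmic reticulum stress kinase PERK (98.6 ± 8.87 CPM), had the highest mean CPM over the input libraries. This order is not scaled by length. Per kilobase several eIF3 genes lay above Eif3a (95.4 CPM per kb), with Eif3k the highest at 196.5 CPM per kb. Eif5 stood at 466.6 ± 13.0 CPM, Eif6, an anti-association factor of the large subunit, at 90.2 ± 9.77 CPM, and Eef1akmt1, which methylates eEF1A, at 11.7 ± 0.775 CPM.

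After RAM siRNA, 2 of the 57 factor genes were lower in input and none was higher (edgeR quasi-likelihood test, adjusted p under 0.05 over all genes tested). Over all genes tested 5.94% were lower and 6.95% higher, 12.9% in either direction, and the factor genes' share was 3.51%. The median log2 fold change was -0.05 over the factor genes and 0.00070 over all genes tested, with 39 factor genes below 0 and 18 above. At an unadjusted p under 0.05 there were 3 lower and 2 higher, 5 of 57, against 28.0% of all genes tested. DESeq2 called 3 lower and 1 higher, adding Eif4g2 and Eif4a2, where 7.11% of all genes tested were lower and 8.33% higher. Limma-voom called 2 lower and none higher, against 6.04% and 6.97%. Without siRAM replicate 4, 6 were lower and 1 was higher, the additions being Eif4g2, Eif2s1, Eif2s3x and Eif6 (lower) and Eif4a2 (higher), and 8.97% of all genes tested were then lower and 10.6% higher, 19.6% in either direction. From replicates 1 and 2 alone 4 were lower and 2 higher, against 9.47% and 11.1% of all genes tested, and from replicates 3 and 4 alone none was called, as was true of all 12805 genes there.

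Eif1b, a close relative of the start site selection factor gene Eif1, had the largest change of the group. In control input replicates 1 to 4 it was at 25.4, 21.3, 21.7 and 24.1 CPM. In siRAM input it was at 14.5, 12.8, 13.0 and 17.3 CPM. The groups did not overlap, and the siRAM mean was 62.3% of control (log2 fold change -0.69 ± 0.11 SE; edgeR adjusted p = 0.00178, 2.62e-07 with the block). The change was -0.77 ± 0.12 from replicates 1 and 2 alone and -0.60 ± 0.18 from replicates 3 and 4 alone, the latter with an adjusted p of 0.438. Eif1 itself was at 108.5 ± 11.1 CPM in control input and gave a log2 fold change of -0.07 ± 0.10 SE (edgeR adjusted p = 0.699). Eif1b lies on chromosome 9 (GRCm38, chr9:120492232-120495330, plus strand) and shares 143 exonic bases with an antisense transcript, D830035M03Rik, not analysed here.

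Eef2kmt, which encodes the methyltransferase of eEF2, was the other gene called. It was at 23.6, 22.4, 20.8 and 23.8 CPM in control input and at 18.9, 19.2, 17.1 and 19.2 CPM in siRAM input. The groups did not overlap, and the siRAM mean was 82.2% of control (log2 fold change -0.28 ± 0.08 SE; edgeR adjusted p = 0.0370, 0.00156 with the block). Each siRAM library lay below its same-numbered control. Without the block, this call was lost in 6 of the 8 fits that each left out 1 library. The edgeR adjusted p lay between 0.0276 and 0.114, and the call was kept without control replicate 3 or siRAM replicate 4. Eef2kmt (chr16:5244152-5255983, minus strand) shares 615 exonic bases with genes on the opposite strand, chiefly Alg1, which was higher in siRAM input (log2 fold change 0.34; edgeR adjusted p = 0.0146). Whether the counting used strand is not stated. Eef2 itself, the substrate of this methyltransferase, was at 1420 ± 80.3 CPM in control input with a log2 fold change of -0.06 ± 0.09 SE (edgeR adjusted p = 0.708), and Eef2k, the eEF2 kinase gene, gave -0.12 ± 0.12 SE (edgeR adjusted p = 0.564).

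With the replicate block, 12 factor genes were lower (21.1% of 57) and 5 higher (8.77%) in siRAM input. Over all genes tested 19.0% were lower and 20.3% higher, 39.3% in either direction. DESeq2 with the block called 7 lower and 4 higher, where 12.1% and 12.5% of all genes tested were. It did not call Eif2a, Eif2ak2, Eif2s3x, Eif3b, Eif5b or Eef1e1, which edgeR with the block called. The changes of the factor genes other than Eif1b and Eef2kmt were small, none beyond 0.30 on the log2 scale in either fit, as the plot of input changes by role shows. Several of them moved by over 1.5 times when siRAM replicate 4 was left out of the fit without the block, and those values are given below.

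**Figure D1:**
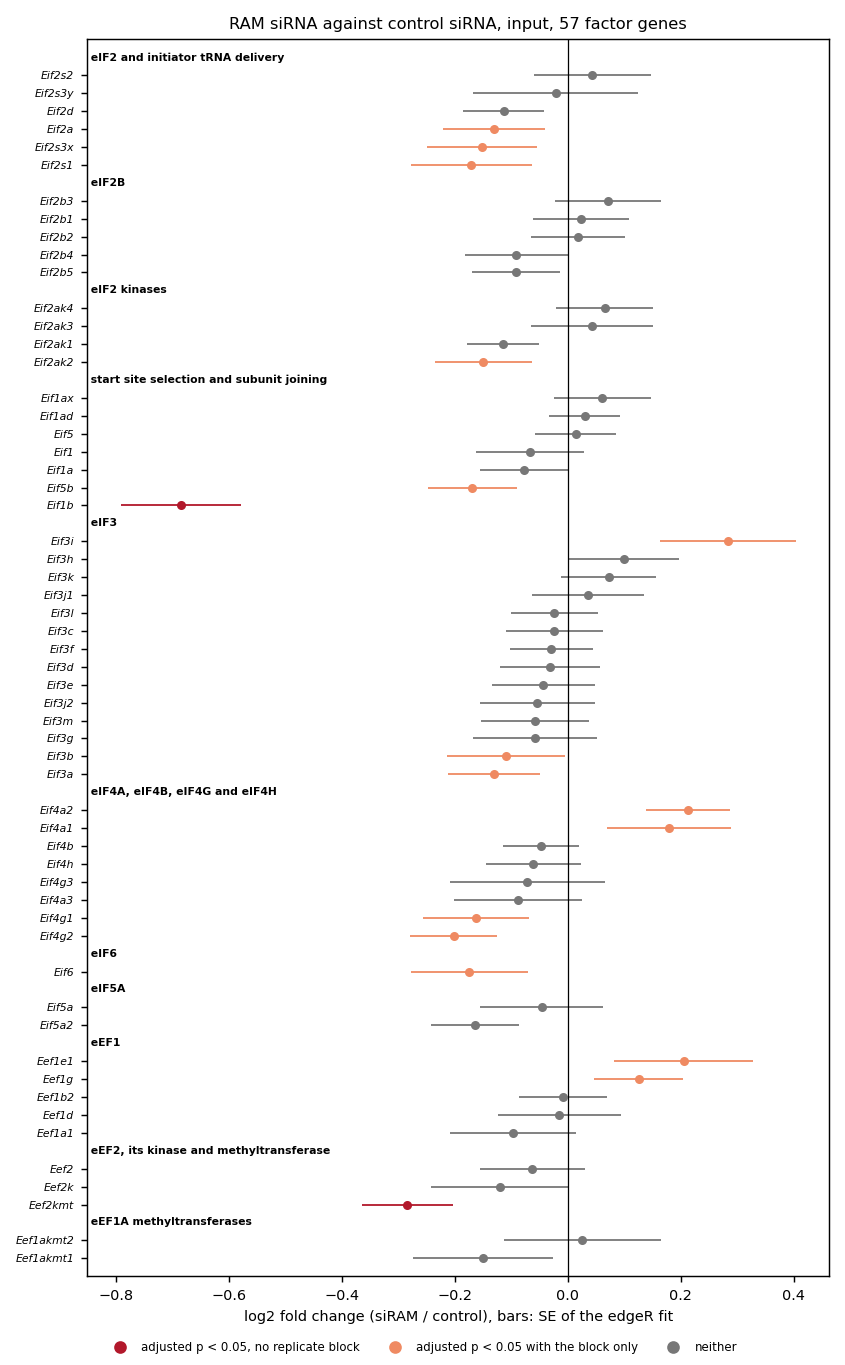
Log2 fold change of siRAM over control input (x axis) for the 57 factor genes grouped by role, with bars for the standard error of the edgeR fit without the replicate block. Eif1b at -0.69 and Eef2kmt at -0.28 are the 2 genes called without the block, and the 15 genes called with the block alone lie between -0.20 and 0.28.

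Of the 8 scaffold and helicase genes of eIF4, edgeR called none in input without the block, where 12.9% of all genes tested were called. With the block 2 were lower and 2 higher, against 19.0% and 20.3% of all genes tested. Eif4g2, which encodes an eIF4G relative that lacks the cap-binding protein's docking site, was at 676.4, 655.8, 718.5 and 717.6 CPM in control input and 561.2, 601.4, 586.4 and 662.2 CPM in siRAM input. The groups overlapped only through siRAM replicate 4 and control replicate 2 (log2 fold change -0.20 ± 0.08 SE; edgeR adjusted p = 0.107, 0.00113 with the block). Eif4g1, the main eIF4G scaffold, gave -0.16 ± 0.09 SE (edgeR adjusted p = 0.289, 0.00454 with the block), and -0.10 without siRAM replicate 4. Eif4a2, a paralog of the helicase gene Eif4a1, was at 658.1, 647.9, 621.4 and 632.3 CPM in control input and at 744.0, 762.7, 781.6 and 683.5 CPM in siRAM input. Every siRAM library lay above every control library (log2 fold change 0.21 ± 0.07 SE; edgeR adjusted p = 0.0789, 0.000844 with the block). Eif4a1 was at 753.1, 766.8, 696.5 and 895.5 CPM in control input and 811.2, 838.6, 802.9 and 1077 CPM in siRAM input. It was higher in all 4 same-numbered pairs, while the groups overlapped (log2 fold change 0.18 ± 0.11 SE; edgeR adjusted p = 0.319, 0.00322 with the block), and without siRAM replicate 4 the value was 0.07. Eif4a1 and Eif4a2 are similar in sequence, share exonic bases with small RNA genes on their own strand (287 and 617 bases), and reads common to both could have been divided or dropped in counting.

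Of the 14 eIF3 subunit genes none was called without the block (12.9% of all genes tested were), and with it 2 were lower and 1 higher, against 19.0% and 20.3% of all genes tested. DESeq2 with the block called Eif3a lower and Eif3i higher but not Eif3b, where it called 1551 lower and 1598 higher of all 12805 genes. Eif3i rose with the block alone. It was at 138.1, 137.4, 134.1 and 164.9 CPM in control input and 173.4, 151.5, 151.6 and 224.3 CPM in siRAM input. All 4 same-numbered pairs were higher with siRAM, and control replicate 4 lay above siRAM replicates 2 and 3 (log2 fold change 0.28 ± 0.12 SE; edgeR adjusted p = 0.145, 0.000170 with the block), and without siRAM replicate 4 the value was 0.15. Eif3a, the largest core subunit, gave -0.13 ± 0.08 SE (edgeR adjusted p = 0.332, 0.0260 with the block), and -0.09 without siRAM replicate 4.

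Of the 6 genes for eIF2 and initiator tRNA delivery, 3 were lower with the block and none without it, against 19.0% and 5.94% of all genes tested. DESeq2 with the block called Eif2s1 alone of these, where it called 1551 of all 12805 genes lower. Eif2s1, which encodes the eIF2α subunit that the stress kinases phosphorylate, was at 327.7, 302.9, 293.7 and 371.9 CPM in control input and 262.8, 267.0, 270.9 and 352.9 CPM in siRAM input. Each siRAM library lay below its same-numbered control, and siRAM replicate 4 lay above 3 of the control libraries (log2 fold change -0.17 ± 0.11 SE; edgeR adjusted p = 0.333, 0.00431 with the block). The value was -0.28 without siRAM replicate 4 and -0.10 without control replicate 4. Eif2s3x, the X-linked gene of eIF2γ, gave -0.15 ± 0.10 SE (edgeR adjusted p = 0.346, 0.0207 with the block), then -0.25 and -0.10 without these libraries. No call was made for any of the 5 eIF2B subunit genes in either fit (12.9% and 39.3% of all genes tested were called), and their log2 fold changes ran from -0.09 to 0.07. Among the 4 eIF2 kinase genes, Eif2ak2, the double-stranded RNA sensor PKR, was at 31.5 ± 2.70 CPM in control input and gave -0.15 ± 0.09 SE (edgeR adjusted p = 0.284, 0.0477 with the block), and -0.09 without control replicate 2.

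The remaining genes with calls under the block were spread over the roles. Eif6 gave -0.17 ± 0.10 SE (edgeR adjusted p = 0.308, 0.00361 with the block) and Eif5b, the subunit joining GTPase gene, -0.17 ± 0.08 SE (edgeR adjusted p = 0.184, 0.0153 with the block). Eif6 ran from -0.11 without control replicate 4 or siRAM replicate 3 to -0.27 without siRAM replicate 4. Both calls in the eEF1 group were for higher levels (2 of 5 genes, against 20.3% of all genes tested). DESeq2 with the block called Eef1g alone of these, where it called 1598 of all 12805 genes higher. Eef1e1, a scaffold component of the aminoacyl-tRNA synthetase complex, gave 0.21 ± 0.12 SE (edgeR adjusted p = 0.311, 0.00829 with the block) and Eef1g 0.13 ± 0.08 SE (edgeR adjusted p = 0.332, 0.0278 with the block). Without siRAM replicate 4 these were 0.06 and 0.08. The most abundant factor transcript, Eef1a1, was at 5820 ± 469.8 CPM in control input, with -0.10 ± 0.11 SE (edgeR adjusted p = 0.616). Eif2a and Eif3b complete the 12 lower with the block and were named after their values were seen. By library level, siRAM and control input did not overlap for 4 factor genes that were lower (7.02%, against 8.62% of all genes tested) and 1 that was higher (1.75%, against 9.39%). The 4 were Eif1b, Eef2kmt, Eif5a2 and Eif2ak1, the last named after its values were seen, and the other was Eif4a2.

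**Figure D2:**
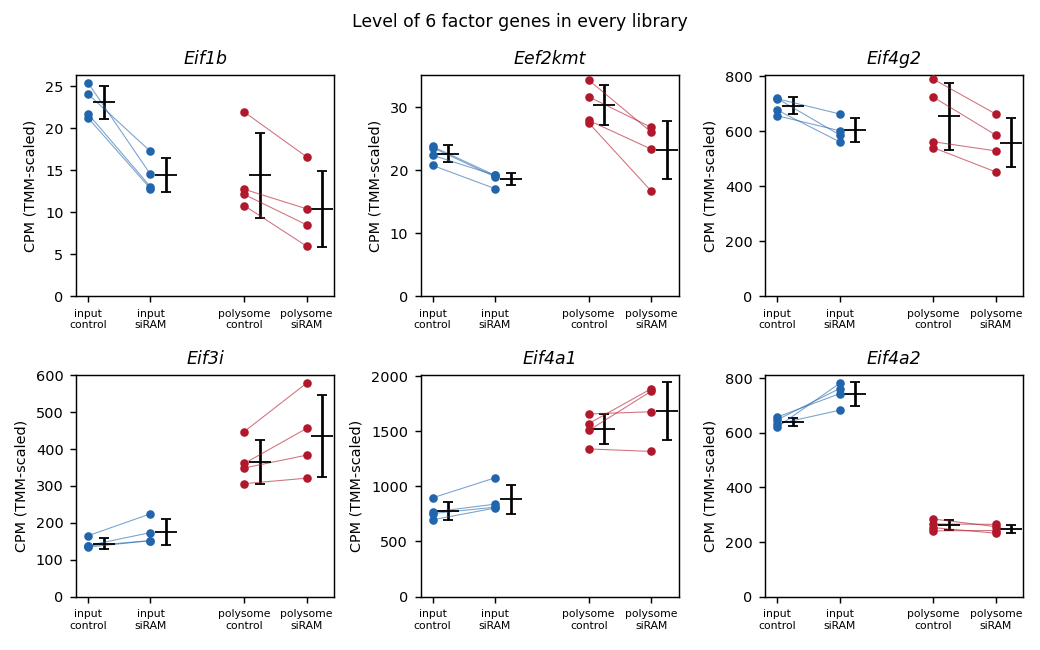
CPM (y axis, from 0) of Eif1b, Eef2kmt, Eif4g2, Eif3i, Eif4a1 and Eif4a2 in each of the 16 libraries, input in blue and polysomes in red, with lines joining same-numbered libraries and black bars for mean ± SD of 4. Eif1b falls from 23.1 to 14.4 CPM in input without overlap, and Eif4a2 is higher in siRAM input but lies between 232.4 and 284.3 CPM in all polysome libraries.

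Other translation genes outside the naming rule, a list of 31 covering termination and recycling, poly(A)-binding proteins, hypusine synthesis, selenocysteine insertion, mitochondrial factors and regulators, were compared in the same way. Of the 30 tested, 2 were lower and 2 higher in siRAM input (6.67% each, against 5.94% and 6.95% of all genes tested), and with the block 8 were lower and 6 higher (against 19.0% and 20.3%). Eefsec, the elongation factor gene for selenocysteine, was at 19.8 ± 2.63 CPM in control input and 10.6 ± 1.89 CPM in siRAM input (log2 fold change -0.91 ± 0.13 SE; edgeR adjusted p = 0.00115). Paip2b, an inhibitor of poly(A)-binding protein, was at 73.3 ± 4.36 CPM and 55.0 ± 3.26 CPM (-0.42 ± 0.07 SE; edgeR adjusted p = 0.00283). Tufm, the mitochondrial counterpart of eEF1A, was higher, from 168.1 ± 13.2 CPM to 215.2 ± 6.12 CPM (0.35 ± 0.07 SE; edgeR adjusted p = 0.00940). So was Secisbp2, whose product recruits Eefsec to selenoprotein mRNA, from 27.0 ± 0.912 CPM to 32.3 ± 1.12 CPM (0.26 ± 0.07 SE; edgeR adjusted p = 0.0293).

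In polysomes, no factor gene was called in siRAM against control libraries, and none had an unadjusted p under 0.05, where 9.0% of all genes tested did (edgeR quasi-likelihood test). Over all genes tested 0.0234% were called. Limma-voom (also 0.0234% of all genes) and DESeq2 (2.35%) without the block called no factor gene either. The median log2 fold change was -0.01 over the factor genes and 0.06 over all genes tested. With the block, 1 factor gene was lower and none higher, against 4.97% lower and 9.68% higher of all genes tested (14.6% in either direction), and DESeq2 with the block made the same single call (4.81% of all genes lower and 7.59% higher). That gene was Eif1b, at 12.1, 10.8, 12.7 and 21.9 CPM in control polysomes and 8.50, 5.96, 10.4 and 16.6 CPM in siRAM polysomes. It was lower in all 4 pairs although the groups overlapped, and replicate 4 was the highest library in both (log2 fold change -0.42 ± 0.34 SE; edgeR adjusted p = 0.861, 0.0308 with the block). The value was -0.63 ± 0.25 from replicates 1 and 2 alone and -0.31 ± 0.32 from replicates 3 and 4 alone. It ran from -0.19 without control replicate 4 and -0.22 without siRAM replicate 2 to -0.76 without siRAM replicate 4. Eef2kmt was at 27.9, 27.5, 31.6 and 34.3 CPM in control polysomes and 23.3, 16.7, 26.8 and 26.0 CPM in siRAM polysomes. The groups did not overlap (log2 fold change -0.33 ± 0.20 SE; edgeR adjusted p = 0.722, 0.0596 with the block). It was the one factor gene whose polysome groups did not overlap, among 4.38% of all genes tested that were lower without overlap.

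Polysome loading, the RAM siRNA effect in polysomes minus that in input, was changed for no factor gene in any fit run, with or without the block (edgeR quasi-likelihood test over all 16 libraries). Because libraries were scaled to a common size, this is loading relative to other genes. A loading change shared by all genes would not be seen. In these cells the paper measured a lower polysome to monosome ratio after RAM siRNA. Over all genes tested 0.0% were called in these edgeR fits, and 2 genes with the block set within each fraction (0.0156%). At an unadjusted p under 0.05 there was no factor gene without the block and 1 with it, against 0.781% and 2.05% of all genes tested. DESeq2 and limma-voom called no factor gene either, where over all genes DESeq2 called 1 (0.00783%), or 2 with the block, and limma-voom none. The smallest p for a decrease was that of Eif4a2, with a log2 difference of -0.28 ± 0.16 SE (edgeR adjusted p = 1.00 with and without the block). Its level was higher in siRAM input, and it lay at 284.3, 240.9, 252.7 and 266.2 CPM in control polysomes and 256.4, 242.1, 232.4 and 264.8 CPM in siRAM polysomes. The smallest p for an increase was that of Eif5a2, a low-abundance paralog of Eif5a, with 0.25 ± 0.22 SE (edgeR adjusted p = 1.00). Its value ran from 0.15 to 0.43 when each library was left out. For Eif1b the loading difference was 0.21 ± 0.37 SE. Standard errors of this size leave small loading differences undetectable here, and for some genes large ones too. They were widest for Eif4g1 (0.63) and Eif3a (0.60), on the log2 scale without the block.

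More factor genes differed between the fractions than between the siRNAs. Comparing control polysomes with control input, 33 of the 57 factor genes were higher and 12 lower (57.9% and 21.1%; edgeR quasi-likelihood test, adjusted p under 0.05), against 33.1% higher and 34.3% lower of all genes tested, 67.4% in either direction. With the block 35 were higher and 14 lower, against 35.1% and 37.2% of all genes tested, 72.3% in either direction. The median log2 fold change was 0.54 over the factor genes and -0.00079 over all genes tested. By library level, the groups did not overlap for 32 factor genes that were higher (56.1%, against 30.7% of all genes tested) and 9 that were lower (15.8%, against 30.4%). From replicates 1 and 2 alone 33 were higher and 11 lower (33.1% and 36.1% of all genes tested), and from replicates 3 and 4 alone 33 and 10 (28.3% and 29.3%). Comparing siRAM polysomes with siRAM input gave 27 higher and 6 lower, where 27.3% of all genes tested were higher and 25.9% lower, 53.3% in either direction. With the block these were 27 and 8, against 28.8% and 29.9% of all genes tested, 58.8% in either direction.

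Most subunit genes of eIF2B and eIF3 were higher in polysomes. All 5 eIF2B genes were higher, with log2 fold changes from 0.70 to 1.21 and a median of 1.06. Of the 14 eIF3 genes 12 were higher and 1 lower, with a median of 0.81, where 33.1% of all genes tested were higher and 34.3% lower. In siRAM polysomes against siRAM input all 5 eIF2B genes and 11 eIF3 genes were higher and none lower (1 eIF3 gene, Eif3a, was lower with the block), where 27.3% of all genes tested were higher and 25.9% lower. Eif3g, Eif3k, Eif3m and Eif3i were among the 5 largest rises of all factor genes. Eif3g, a subunit with an RNA recognition motif, was at 143.8, 139.1, 133.4 and 164.2 CPM in control input and 376.8, 326.6, 379.9 and 436.4 CPM in control polysomes. The groups lay well apart (log2 fold change 1.35 ± 0.13 SE; edgeR adjusted p = 5.53e-06). Eif3k, Eif3m and Eif3i gave 1.35 ± 0.13, 1.34 ± 0.12 and 1.31 ± 0.14 SE. The exceptions were 2 core subunits. Eif3c, at 0.13 ± 0.17 SE, was not called (edgeR adjusted p = 0.488), and Eif3a was lower in polysomes.

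Eif3a had the widest spread of the factor genes in control polysomes, an SD of 0.794 on the log2 scale. It was at 522.0, 497.2, 443.8 and 493.3 CPM in control input and 240.2, 440.2, 119.2 and 178.0 CPM in control polysomes. Polysome replicate 2 approached the input libraries while replicate 3 fell far below them (log2 fold change -1.04 ± 0.31 SE; edgeR adjusted p = 0.0118). The change was -0.63 ± 0.26 from replicates 1 and 2 alone (adjusted p = 0.0628) and -1.66 ± 0.23 from replicates 3 and 4 alone. Eif4g1, another long mRNA, was at 813.1, 819.8, 747.9 and 708.9 CPM in control input and 527.2, 814.5, 277.8 and 272.7 CPM in control polysomes. Again replicate 2 was the highest polysome library (log2 fold change -0.75 ± 0.30 SE; edgeR adjusted p = 0.0455), and the value was -1.12 without replicate 2. It was -0.33 from replicates 1 and 2 alone (adjusted p = 0.168). The call was lost in 7 of the 8 fits that each left out 1 library (adjusted p from 0.000583 without polysome replicate 2 to 0.130). In siRAM polysomes Eif4g1 ran from 196.7 CPM in replicate 4 to 1124 CPM in replicate 2.

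Of the 5 eEF1 genes 4 were higher in control polysomes, as were 4 of the 6 genes of eIF2 and initiator tRNA delivery, against 33.1% of all genes tested. Comparing the siRAM libraries, 1 of the 5 eEF1 genes was called higher (also 1 with the block), against 27.3% of all genes tested (28.8% with the block). So were 4 of the 6 genes of eIF2 and initiator tRNA delivery, in either fit. The difference between the siRNA groups was not called for any factor gene in the loading test above. In control polysomes with the block 5 of the 6 genes of eIF2 and initiator tRNA delivery were higher, against 35.1% of all genes tested. The added call was Eif2s3y, the Y-linked eIF2γ gene (log2 fold change 0.35 ± 0.19 SE; edgeR adjusted p = 0.118, 0.01003 with the block and 0.0375 without input replicate 4), named after its values were seen. Eef1d, a nucleotide exchange subunit of eEF1B, had the largest rise of all factor genes, from 191.8, 182.7, 177.9 and 220.6 CPM in control input to 551.2, 477.3, 500.9 and 616.7 CPM in control polysomes. No polysome library approached an input library (log2 fold change 1.44 ± 0.13 SE; edgeR adjusted p = 3.77e-06). Eef1d shares 277 exonic bases with Naprt on the same strand. Eef1a1 gave 0.42 ± 0.14 SE (edgeR adjusted p = 0.0236, up to 0.0814 and lost in 4 of 8 fits when 1 library was left out, and 0.306 from replicates 3 and 4 alone), Eef1b2 0.47 ± 0.13 SE and Eef1g 0.43 ± 0.12 SE (adjusted p = 0.142 from replicates 3 and 4 alone). Eif2s2 gave 1.03 ± 0.16 SE and Eif2s1 1.21 ± 0.13 SE. Eif6 gave 1.21 ± 0.16 SE and Eif2ak3 0.80 ± 0.15 SE.

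Of the 12 factor genes lower in polysomes, 7 belonged to the start site and eIF4 groups. Of the 7 start site and subunit joining genes, 4 were lower and none higher, against 34.3% and 33.1% of all genes tested. Comparing the siRAM libraries, 1 of the 7 was called lower, and 2 with the block, against 25.9% and 29.9% of all genes tested. Eif1 was at 96.2, 107.0, 123.2 and 107.6 CPM in control input and 53.9, 32.9, 55.0 and 72.4 CPM in control polysomes. The groups did not overlap (log2 fold change -1.05 ± 0.20 SE; edgeR adjusted p = 0.000707). Eif1b gave -0.72 ± 0.21 SE (edgeR adjusted p = 0.00961), with groups that overlapped through polysome replicate 4. Its value was -1.08 ± 0.14 from replicates 1 and 2 alone and -0.41 ± 0.24 from replicates 3 and 4 alone, the latter with an adjusted p of 0.171. Eif1ad, an eIF1A-like gene named after its values were seen, gave -0.41 ± 0.16 SE (edgeR adjusted p = 0.0390, lost in 6 of 8 fits when 1 library was left out, up to 0.110), and Eif5 -0.28 ± 0.11 SE (edgeR adjusted p = 0.0332, lost in 7 of 8 such fits, up to 0.0955, and 0.272 from replicates 3 and 4 alone). In control polysomes with the block 5 of the 7 were lower, against 37.2% of all genes tested. The added call was Eif5b (-0.49 ± 0.22 SE; edgeR adjusted p = 0.0664, 0.0337 with the block), whose value was -0.73 without polysome replicate 2 and -0.29 without polysome replicate 3. Of the 8 eIF4 genes 3 were lower and 2 higher, against 34.3% and 33.1% of all genes tested. In the siRAM libraries 2 were lower and 2 higher, against 25.9% and 27.3% of all genes tested. In control polysomes with the block 4 of the 8 were lower, against 37.2% of all genes tested. The added call was the eIF4G paralog Eif4g3 (-0.48 ± 0.25 SE; edgeR adjusted p = 0.109, 0.0284 with the block and 0.0127 without polysome replicate 2), named after its values were seen. Eef1akmt2, an eEF1A methyltransferase gene, gave -1.18 ± 0.25 SE (edgeR adjusted p = 0.00139), while Eef1akmt1 gave 0.54 ± 0.21 SE (edgeR adjusted p = 0.0377, lost in 5 of 8 such fits, up to 0.0836, and 0.135 from replicates 1 and 2 alone) and 0.26 without polysome replicate 4.

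Paralogs of the helicase and of eIF5A differed in their fraction values. Eif4a1 stood at 778.0 ± 84.1 CPM in control input and at 1657, 1508, 1339 and 1570 CPM in control polysomes (log2 fold change 0.93 ± 0.13 SE; edgeR adjusted p = 7.73e-05). Its paralog Eif4a2 fell from 640.0 ± 16.3 CPM to polysome levels between 240.9 and 284.3 CPM (-1.33 ± 0.11 SE; edgeR adjusted p = 2.07e-06). Eif4a3, the other Eif4a gene, named after its values were seen, was higher (1.27 ± 0.12 SE; edgeR adjusted p = 4.06e-06). Eif5a was at 495.4, 486.4, 446.0 and 565.8 CPM in control input and 562.3, 514.6, 717.3 and 1080 CPM in control polysomes. It was higher in all 4 pairs, with polysome replicate 4 far above the others (0.50 ± 0.22 SE; edgeR adjusted p = 0.0630, 0.0425 with the block and 0.0111 without polysome replicate 2), and the value was 0.22 without polysome replicate 4. Eif5a2 had the largest fall of all factor genes, from 24.3, 26.7, 24.4 and 26.5 CPM to 7.26, 9.85, 5.70 and 6.48 CPM (-1.83 ± 0.16 SE; edgeR adjusted p = 3.23e-06). The siRAM libraries gave the same directions for Eif4a2 (-1.57 ± 0.16 SE) and Eif5a2 (-1.54 ± 0.16 SE). The difference between paralogs was not itself tested.

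**Figure D3:**
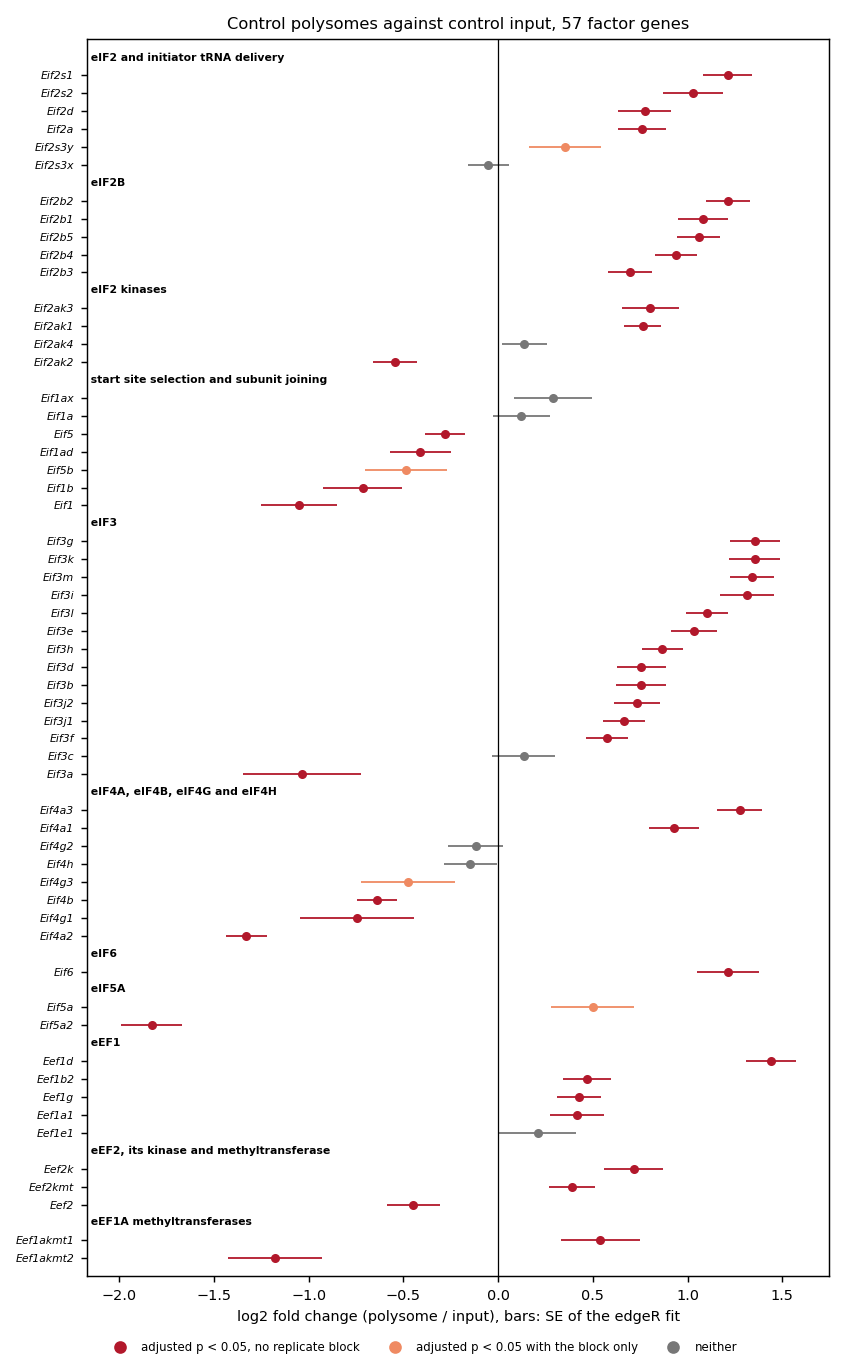
Log2 fold change of control polysomes over control input (x axis) for the 57 factor genes grouped by role, with bars for the standard error of the edgeR fit without the replicate block. All 5 eIF2B genes and 12 of 14 eIF3 genes lie to the right of 0 and were called, while Eif5a2 at -1.83 and Eif4a2 at -1.33 lie farthest to the left.

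Transcript length moved with these fraction differences. Of the 44 factor genes with an annotated transcript under 4000 bases, 29 were higher and 7 lower in control polysomes, with a median log2 fold change of 0.71, and of the 13 with 4000 bases or more, 4 were higher and 5 lower, with a median of -0.28. Over all genes tested, 44.4% of the shorter were higher and 22.6% lower, 13.0% of the longer were higher and 54.0% lower, and the medians were 0.31 and -0.50. Across the 57 genes, which share libraries and are not independent replicates, the Spearman correlation of transcript length with the log2 ratio of polysome to input CPM was -0.39, -0.30, -0.44 and -0.52 in control replicates 1 to 4 and -0.40, -0.08, -0.46 and -0.50 in siRAM replicates 1 to 4. Over 12112 genes it was -0.30, -0.20, -0.46 and -0.53, then -0.35, 0.0036, -0.50 and -0.58. Replicate 2 had the weakest relation in both groups. Eif5a2, Eif4g1 and Eif3a are long transcripts, whereas Eif1 and Eef1akmt2 are short and Eif4a2 is of intermediate length. The part of length in the fraction differences was not tested.

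**Figure D4:**
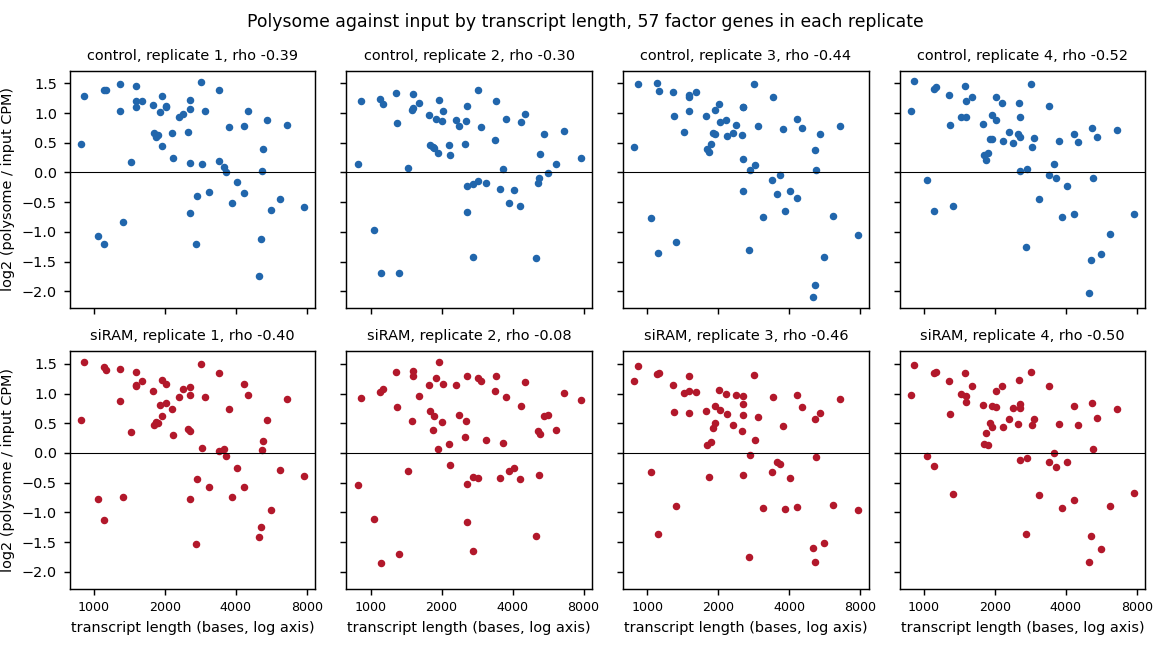
Log2 ratio of polysome to input CPM (y axis) against annotated transcript length in bases (x axis, log scale) for the 57 factor genes, 1 panel for each replicate, control in blue above and siRAM in red below. Longer transcripts lie lower in 7 of the panels, with rho from -0.30 to -0.52, and siRAM replicate 2 has a rho of -0.08.

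Many elongation factor mRNAs are known as TOP mRNAs, which begin with a C followed by an unbroken run of pyrimidines and whose translation depends on mTOR signaling. Of 9 factor genes listed as TOP mRNAs, 7 were higher in control polysomes and 2 lower, with a median log2 fold change of 0.47, against 0.60 for the other 48, and 33.1% of all genes tested were higher and 34.3% lower. Comparing the siRAM libraries, 3 of the 9 were called higher and 1 lower, against 27.3% and 25.9% of all genes tested. Ribosomal protein genes, the main class of TOP mRNAs, gave 24 higher and 23 lower of 80 tested, with a median of -0.10. The 2 TOP factor genes that were lower were Eef2 (-0.45 ± 0.14 SE; edgeR adjusted p = 0.0142, 0.0517 without polysome replicate 3 and 0.0582 from replicates 3 and 4 alone) and Eif4b (-0.64 ± 0.11 SE; edgeR adjusted p = 0.000258). Eef2 was at 1400, 1343, 1403 and 1533 CPM in control input and 1114, 1194, 831.4 and 1124 CPM in control polysomes, without overlap. In siRAM against control input none of the 9 was called without the block (12.9% of all genes tested were), and Eef1g alone was called with it (39.3% of all genes tested). The 30 bases around the annotated start (7 before it and 23 from it on) are shown for the TOP genes found in RefSeq's GRCm38.p6 start table, 5 of the 9, with Eif4a1 and Eif4a2 as paralogs with opposite fraction differences and Eif1b as the gene with the largest input change. Capitals mark the longest run of C and T where it has at least 5 bases.
Eef1a1: cgCCCTCTTCCCgagggtgggggagaacgg
Eef1b2: cagttccgccggaagtagccgaggccttgc
Eef2: gccgggcgttgacgtcagcggTCTCTTCCg
Eif3f: aggCTCTCTCTCTTTCTCggcaagatggct
Eif4b: cgtcggacgccgcgccaCCCCCTCgcgctg
Eif4a1: acgtcacgtcgagttgcagagcgccggcag
Eif4a2: accccgtaggagcagggcggccgaggagcg
Eif1b: cggggctaaatacgcggcgccggccatttt

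These windows are Eef1a1 at chr9:78481702-78481731 (minus strand), Eef1b2 at chr1:63176824-63176853 (plus), Eef2 at chr10:81176624-81176653 (plus), Eif3f at chr7:108934408-108934437 (plus), Eif4b at chr15:102073766-102073795 (plus), Eif4a1 at chr11:69672401-69672430 (minus), Eif4a2 at chr16:23107461-23107490 (plus) and Eif1b at chr9:120492599-120492628 (plus). The runs were 15 bases in Eif3f, 10 in Eef1a1, 8 in Eef2 and 7 in Eif4b, and no window of Eef1b2, Eif4a1, Eif4a2 or Eif1b held one of 5 bases. Relative to the annotated start, the runs began at -5 in Eef1a1, -4 in Eif3f, 15 in Eef2 and 11 in Eif4b. None began at the annotated start itself, so a marked run need not be a TOP tract. Of the TOP genes shown, Eef1a1, Eef1b2 and Eif3f were higher in control polysomes and Eef2 and Eif4b lower. A run of at least 8 C or T bases on the gene's own strand within 25 bases on either side of an annotated start was present in 13 of the 46 factor genes in the table (28.3%) and in 22.3% of its 27025 genes. Such a run describes these letters around an annotated start, which need not be the start used in ESCs.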

How the data were processed

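The authors sequenced ribosomal RNA-depleted, strand-specific libraries, mapped reads to GRCm38 with STAR 2.5.1b and deposited raw counts per gene from htseq-count, with no normalization. The strand and overlap settings and the annotation release are not given in the sources used here. A symbol was matched for 46488 of the gene identifiers and not for 495. The paper and the labels describe the transfection differently. The experiment was run on 4 occasions, and replicates are numbered alike in every group.

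Groups came from the labels. Genes with at least 1 CPM in at least 10 libraries (12805) were tested on the counts by quasi-likelihood fits in edgeR 4.0.16 (R 4.3.3), with TMM scaling and Benjamini-Hochberg adjustment over all genes tested, and a threshold of 0.05. Within-fraction comparisons used 8 libraries and loading all 16. Each comparison was first fitted without the replicate number. Deviations of same-numbered libraries from their group means correlated in all 16 pairs of groups and numbers (r from 0.23 to 0.94 over 9140 genes). The same number gave the highest r in 15 of the 16. The exception was control polysome replicate 1, at 0.63 with its own number and 0.64 with another number in siRAM polysomes. The numbers were therefore taken to pair the samples. The fit with the replicate block is given where it changes a call or a count that the text turns on. Libraries of 1 group differed by more than counting noise (chi-square per gene at least 4.22), so none is a copy. Alternatives were RLE scaling, DESeq2 1.42.0, limma-voom (limma 3.58.1), other filters, each library left out and replicates 1 and 2 or 3 and 4 alone. Scripts were tested on simulated data. Transcript lengths are from GENCODE M21, taking the longest transcript with a consensus coding sequence.

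The members, roles and lists were chosen with earlier results of these data known. Genes were named by rule: those called in input, up to 10 called with the block in each direction, the most abundant of each role, the 5 largest rises and falls between fractions, the smallest loading p in each direction, Ramac, cell type markers and related genes called in input.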

Additional observations from a re-analysis of the deposited data

Results flagged for a closer look

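Among the 30 factor genes named by rule, the levels of 120 groups of 4 libraries were searched for a library far from the other 3, and 11 groups held one. Chance gives about 1 in 20 groups, or 6 of 120, if groups are independent. These groups share the same 16 libraries and are not independent, so the 2 counts are not directly comparable. In 8 of the 11 the library was siRAM input replicate 4, which was the highest. Eef1a1 was at 6602 CPM there, against 4975 to 5208 CPM in the other 3 libraries. Eef2 was at 1600 CPM (others 1255 to 1312), Eif2s1 at 352.9 CPM (262.8 to 270.9), Eif3g at 176.1 CPM (123.7 to 129.7), Eif3k at 218.6 CPM (176.2 to 181.5), Eif3m at 152.7 CPM (116.6 to 120.4), Eif4a1 at 1077 CPM (802.9 to 838.6) and Eif5a at 594.8 CPM (428.5 to 455.7). Eif3i was highest in control input replicate 4, at 164.9 CPM (134.1 to 138.1). Eef2kmt was lowest in siRAM input replicate 3, at 17.1 CPM (18.9 to 19.2). Eif3a was highest in siRAM polysome replicate 2, at 606.0 CPM (121.3 to 201.8).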

How the results depend on the processing

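The count of factor genes lower in siRAM input moved from 2 to 12 with the replicate block, to 7 by DESeq2 with the block, to 4 from replicates 1 and 2 alone and to 0 from replicates 3 and 4 alone, and ran from 1 to 6 when each library was left out. The count higher in input moved from 0 to 5, 4 and 2 in the first 3 of these, was 1 by DESeq2 without the block, and ran from 0 to 1 when each library was left out. Over all 12805 genes tested the count lower in the same fits moved from 761 to 2433, 1551, 1213 and 0, and ran from 426 to 1149. The count higher moved from 890 to 2595, 1598 and 1416, was 1067 by DESeq2 without the block, and ran from 482 to 1357. In polysomes the count lower was 1 with the block and 1 by DESeq2 with the block, against 636 and 616 of all genes tested. Between polysomes and input, 6 were lower in the siRAM libraries in place of 12 in the control libraries, against 25.9% and 34.3% of all genes tested. In the control libraries 9 to 12 were lower and 31 to 35 higher when each library was left out. Over all 12805 genes those fits called 4021 to 4585 lower and 3856 to 4448 higher. The median log2 fold change between control fractions was 0.54, and 0.64 with filterByExpr, 0.67 with no filter (where the median of all genes was -0.34), 0.63 without both control libraries of replicate 2, and 0.44 to 0.64 when each library was left out. In input the median ran from -0.10 to -0.0052 and in polysomes from -0.10 to 0.0067 over such fits. The causes of these shifts were not tested. For 37 results, each a named gene in a comparison, no direction was reversed in 667 alternative values, and 38 were no longer past the threshold and 43 newly past it. The comparison of siRAM with control polysomes was not among these results. The loading count stayed at 0 in every fit. The fits by DESeq2 with the block, the block within each fraction and the fit without both libraries of replicate 2 were chosen after seeing the data. Eef1akmt2, with as few as 41 counts in a library, and Eif5a2, with as few as 100, were the named factor genes with the fewest counts.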
